A study of Mus musculus with 16 samples.

Results

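The genes described are 10 of the 17003 genes in the liver expression table and encode FIT proteins (*Fitm1* and *Fitm2*), perilipins (*Plin2*, *Plin4* and *Plin5*), CIDE proteins (*Cidea*, *Cideb* and *Cidec*), the triglyceride lipase ATGL (*Pnpla2*) and its inhibitor (*G0s2*). They were picked by symbol. The choice was made with the higher level of *Fitm2* in *Fgl1* LKO mice already known, so that differences between the genotypes are given for these genes as a description and without a test. The level used for tests across genes, 0.1 FPKM on average over all mice, was reached by 9 of the 10 genes and by 12770 genes in all, and *Cidea* did not reach it.

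RNA was sequenced from the livers of 16 male mice that were 8 weeks old and in the fed state on normal chow, with 1 library per mouse. The 8 *Fgl1* LWT mice had floxed *Fgl1* alleles and no CRE. The 8 *Fgl1* LKO mice were littermates with the same floxed alleles and a CRE transgene under the albumin promoter, which is active in hepatocytes, so that other liver cells keep the gene. The levels are FPKM, fragment numbers scaled to transcript length and to the number of mapped fragments, and mice are named by genotype and replicate number from LWT 1 to LWT 8 and from LKO 1 to LKO 8.

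Triglyceride in hepatocytes is stored in lipid droplets, which bud from the endoplasmic reticulum as a core of neutral lipid under a single layer of phospholipid. FIT proteins sit in the endoplasmic reticulum membrane and take part in droplet budding. Perilipins coat the droplet and limit the access of lipases, CIDE proteins act in the exchange of lipid between droplets and in the lipidation of lipoproteins, and ATGL carries out the initial step of triglyceride hydrolysis. Several of these genes are known targets of PPAR nuclear receptors, and *Plin2*, *Cidec* and *Cidea* are known to be high in fatty liver.

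*Fgl1*, the deleted gene, had 504 ± 440 FPKM in *Fgl1* LWT mice and 52.0 ± 30.0 FPKM in *Fgl1* LKO mice (SD, n = 8 each), with no overlap between the lowest *Fgl1* LWT mouse (158 FPKM) and the highest *Fgl1* LKO mouse (89.99 FPKM). The paper describes the removal of a single exon in hepatocytes. FPKM per gene do not tell transcripts that lack this exon from whole ones, and the source of the *Fgl1* left in *Fgl1* LKO livers was not tested. The highest FPKM sum of a library was 1.17 times the lowest, and 14116 to 14407 genes had a value above 0. The numbers of reads are unknown, so that no counting error can be given. Hepatocyte markers (8 of 8 in the table) summed to 62371 to 109316 FPKM per library. By limma with Benjamini-Hochberg adjustment, 0 of 12770 genes (0%) differed between the genotypes at an adjusted p under 0.05, and 895 genes (7.01%) had an unadjusted p under 0.05, of which 593 (4.64% of all genes) were higher in *Fgl1* LKO mice. *Fgl1* itself was among the genes that did not pass, so that a gene without a call can still differ. An exact rank-sum test also found 0 genes after adjustment and 840 genes before it. Mice LKO 7 and LKO 8 stood apart from the other 14 in several of the genes below. Values without them are given beside the results that they bear on most.

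The promoters of both FIT genes and of the 2 perilipin genes with a nuclear receptor half-site were read from RefSeq (GRCm38.p6), as the 250 bases before the transcription start, 5′ to 3′ on the strand of the gene. Capitals mark AGGTCA or its reverse complement TGACCT, the half-site that many nuclear receptors, PPARs among them, can bind. *Fitm1* lies on the plus strand (chr14:55575424-55575673), and *Fitm2* (chr2:163472630-163472879), *Plin2* (chr4:86670060-86670309) and *Plin5* (chr17:56117549-56117798) on the minus strand.
Fitm1 promoter: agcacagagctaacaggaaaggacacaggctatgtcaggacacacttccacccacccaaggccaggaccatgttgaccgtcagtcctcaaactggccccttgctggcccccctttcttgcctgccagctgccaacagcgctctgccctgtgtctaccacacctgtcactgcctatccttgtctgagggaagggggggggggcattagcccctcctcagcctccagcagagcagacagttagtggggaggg
Fitm2 promoter: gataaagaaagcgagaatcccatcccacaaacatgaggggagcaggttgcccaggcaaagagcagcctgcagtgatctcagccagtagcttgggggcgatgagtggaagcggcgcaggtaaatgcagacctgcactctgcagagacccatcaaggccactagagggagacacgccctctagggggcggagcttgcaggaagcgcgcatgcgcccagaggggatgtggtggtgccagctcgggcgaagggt
Plin2 promoter: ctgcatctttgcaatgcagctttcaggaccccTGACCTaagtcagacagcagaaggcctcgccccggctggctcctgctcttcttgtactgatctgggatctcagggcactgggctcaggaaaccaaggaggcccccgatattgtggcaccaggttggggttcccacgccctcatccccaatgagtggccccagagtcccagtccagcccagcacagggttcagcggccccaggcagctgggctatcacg
Plin5 promoter: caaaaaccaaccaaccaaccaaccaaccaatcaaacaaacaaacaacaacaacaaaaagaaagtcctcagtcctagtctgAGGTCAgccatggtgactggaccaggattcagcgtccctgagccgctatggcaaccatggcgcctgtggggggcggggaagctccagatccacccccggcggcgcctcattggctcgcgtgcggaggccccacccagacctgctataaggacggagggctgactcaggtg

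RefSeq windows were read for 9 of the 10 genes, with *Cidea* left out. They numbered 11, since *Plin5* and *Cidec* have 2 each. AGGTCA on either strand was found in 2 of the 11, at 218 bases before the start of *Plin2* and 170 bases before that of *Plin5*. Over all 32851 RefSeq promoter windows of this length, 14.024% held it. The direct repeat of AGGTCA with 1 base in between, the PPAR element in its perfect form, was in 0 of the 11 and in 0.033% of all windows. The *Fitm1* and *Fitm2* windows held neither, which says only that these letters are not within 250 bases of the start. GC content of the 11 windows ranged from 47.2 to 70.0%.

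**Figure D1:**
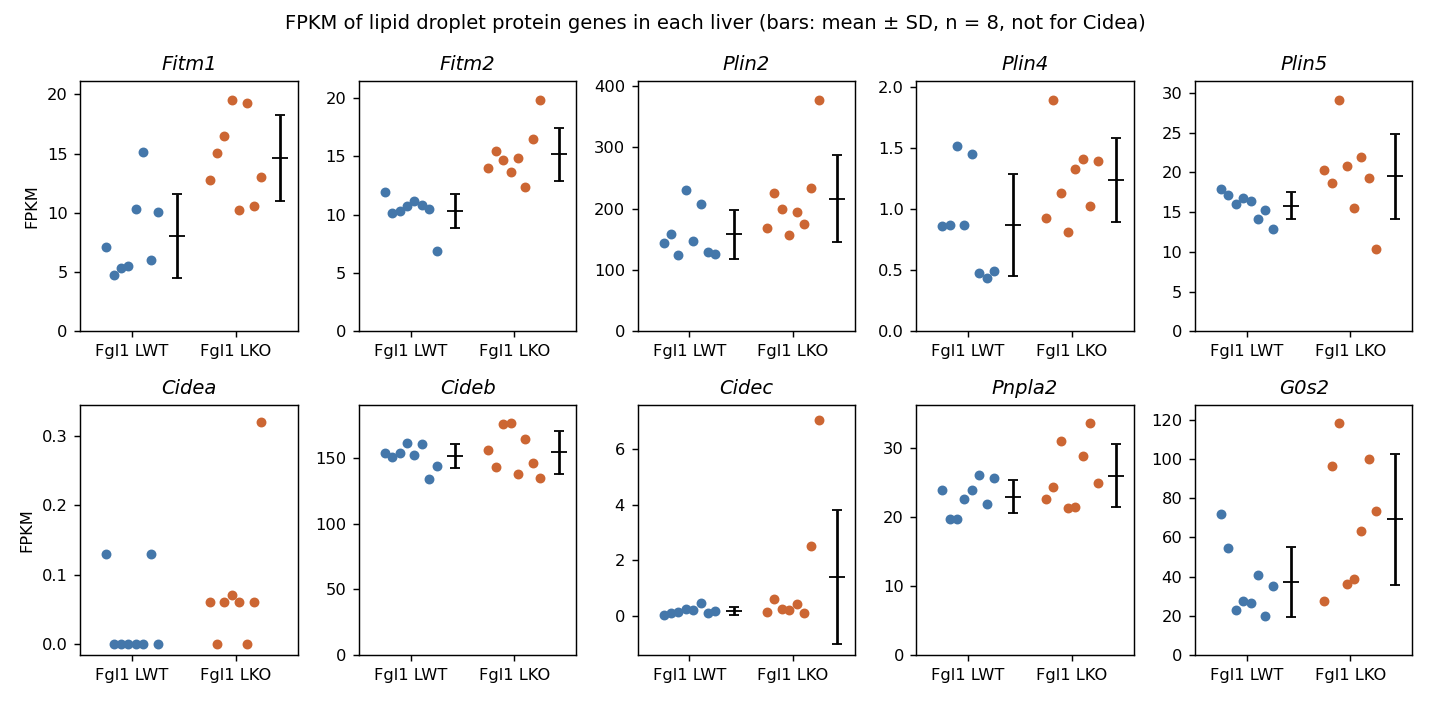
FPKM (vertical axes) of the 10 lipid droplet genes in each liver, with 1 point per mouse in replicate order and bars for the mean ± SD (n = 8 per genotype, left out for Cidea). The *Fitm2* points of the genotypes do not overlap, the *Cideb* points do, and LKO 8 is highest for *Fitm2*, *Plin2*, *Cidea* and *Cidec*.

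*Fitm2*, the FIT protein gene expressed in most tissues, was the gene of this group in which the genotypes did not overlap. On GRCm39 it spans 163308228 to 163314576 on chromosome 2 (minus strand), with 2 exons in its canonical GENCODE transcript. Its level in LWT 1 to LWT 8 was 11.9, 10.1, 10.3, 10.7, 11.2, 10.8, 10.5 and 6.90 FPKM. In LKO 1 to LKO 8 it was 14, 15.4, 14.7, 13.6, 14.8, 12.4, 16.4 and 19.9 FPKM. All *Fgl1* LKO mice were above all *Fgl1* LWT mice, which was so for 1 of 12770 genes (0.00783%). The difference was known when the genes were chosen. The reverse order was also seen for 1 gene (0.00783%), *Fgl1* itself. With 8 against 8 mice, a count of 1 among 12770 genes can arise by chance. Means of *Fitm2* were 10.3 ± 1.48 and 15.2 ± 2.25 FPKM (SD, n = 8 each), a ratio of 1.47. The difference was 0.52 on the log2(FPKM + 1) scale (SE 0.10). Without LKO 7 and LKO 8, the 2 highest mice, the ratio was 1.37. In bulk liver RNA, a change in the number of cells that express a gene and a change in RNA per cell cannot be told apart.

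*Fitm1*, the FIT protein gene best known from skeletal and heart muscle, was expressed in the liver at a like level, with 11.3 ± 4.86 FPKM against 12.7 ± 3.11 FPKM for *Fitm2* over the 16 mice (SD), and 11 of 16 mice had more *Fitm2* than *Fitm1*. It spans 55812992 to 55814411 on chromosome 14 (plus strand) and also has 2 exons. LWT 1 to LWT 8 had 7.08, 4.76, 5.34, 5.54, 10.3, 15.1, 6.00 and 10.03 FPKM. LKO 1 to LKO 8 had 12.8, 15.1, 16.5, 19.6, 10.2, 19.3, 10.6 and 13.01 FPKM. The groups overlapped, since 3 *Fgl1* LKO mice exceeded the highest *Fgl1* LWT mouse (LWT 6), although all 8 exceeded the *Fgl1* LWT median of 6.54 FPKM. Means were 8.02 ± 3.56 and 14.6 ± 3.62 FPKM (SD, n = 8 each), a ratio of 1.82 and a log2 difference of 0.85 (SE 0.20). Muscle markers were near 0 in the same livers. *Ckm* and *Myh4* were at 0 in all mice, and the 6 muscle markers together had 0.15 to 1.26 FPKM.

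*Fitm1* varied among mice of the same genotype more than 95.6% of the 500 genes of most similar mean, and *Fitm2* more than 65.5%. The library names carry mouse numbers that fall into 4 runs (36 to 38, 48 to 55, 60 to 64 and 69 to 72), of which the run from 36 to 38 holds 3 *Fgl1* LWT mice only, so that run and genotype cannot be fully told apart. *Fitm1* had 5.73 ± 1.21 FPKM in these 3 mice and 12.7 ± 3.43 FPKM in LWT 5 and LWT 6, from the run 60 to 64 (SD). The F test of the runs in limma gave *Fitm1* an unadjusted p of 0.0398 and an adjusted p of 0.259. None of the 9 genes passed the adjusted threshold, against 13 of all genes (0.102%), and 2 of the 9 (*Fitm1* and *Cidec*) had an unadjusted p under 0.05, against 17.6% of all genes. With the runs as a term, the genotype difference of *Fitm1* on the log2 scale was 0.63 (SE 0.19) and that of *Fitm2* 0.56 (SE 0.12). Inside the runs 48 to 55, 60 to 64 and 69 to 72, the differences were 1.26, 0.31 and 0.54 for *Fitm1*. They were 0.42, 0.28 and 1.00 for *Fitm2*. Both genes were higher in *Fgl1* LKO mice in each of the 3 runs that hold both genotypes, of which the first has only 1 *Fgl1* LWT mouse.

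**Figure D2:**
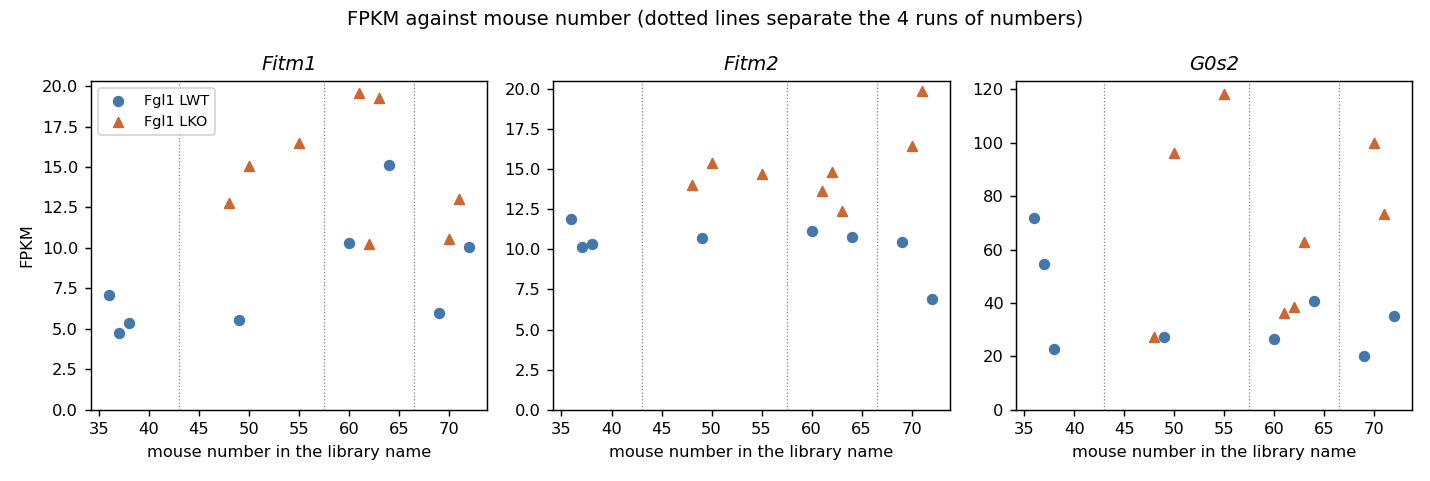
FPKM (vertical axes) of *Fitm1*, *Fitm2* and *G0s2* against the mouse number in the library name, with *Fgl1* LWT mice as circles and *Fgl1* LKO mice as triangles. In the runs 36 to 38 and 48 to 55, *Fitm1* of *Fgl1* LWT mice lies between 4.76 and 7.08 FPKM, while *Fitm2* of the same mice stays between 10.1 and 11.9 FPKM.

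None of the tested genes next to *Fitm1* and *Fitm2* had an unadjusted p under 0.05 between the genotypes, against 7.01% of all genes. With so few genes tested, this does not differ clearly from that share. Of 20 annotated protein-coding genes within 100 kb of *Fitm1*, 15 were tested, with log2 differences from -0.20 to 0.20 by limma. The closest, *Psme1*, an activator subunit of the proteasome, differed by 0.04 (SE 0.05). Near *Fitm2*, 2 of 5 genes were tested: *Oser1* differed by 0.04 (SE 0.06), and *Hnf4a*, a nuclear receptor of hepatocytes, by 0.21 (SE 0.14). On the opposite strand, exons of *Fitm1* and *Fitm2* share 197 and 379 bases with the non-coding genes *Gm15932* and *2310001K24Rik*. The libraries keep the strand, but the strand setting of the counting is not given in the sources used here.

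*Plin2*, which coats droplets in most cells and is the main perilipin of hepatocytes, had the highest mean of the group, 187 ± 62.9 FPKM over the 16 mice (SD). Its level in LWT 1 to LWT 8 was 144, 159, 124, 230.0, 146, 207, 129 and 125 FPKM, and in LKO 1 to LKO 8 it was 168, 225, 199, 157, 194, 174, 234 and 378 FPKM. LKO 8 was far above every other mouse, and LKO 7 was next, just above LWT 4. The genotype means were 158 ± 39.6 and 216 ± 70.6 FPKM (SD, n = 8 each). Their ratio of 1.37 was 1.22 without LKO 8 and 1.18 without LKO 7 and LKO 8. By run, the log2 difference was -0.23, 0.00 and 1.22, so that it was seen in the run 69 to 72 alone, which holds LKO 7 and LKO 8.

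*Plin5*, the perilipin of oxidative tissues that ties droplets to mitochondria, had 17.7 ± 4.28 FPKM over the 16 mice (SD). *Fgl1* LWT mice had 17.9, 17.2, 16.01, 16.8, 16.4, 14.1, 15.3 and 12.9 FPKM. *Fgl1* LKO mice had 20.3, 18.6, 29.2, 20.8, 15.5, 21.9, 19.4 and 10.4 FPKM. In 6 of the 8 *Fgl1* LKO mice the level was above the highest *Fgl1* LWT mouse, and the exceptions were LKO 5 and LKO 8, the latter with the lowest *Plin5* of all mice. Means were 15.8 ± 1.67 and 19.5 ± 5.36 FPKM (SD, n = 8 each), a ratio of 1.23 that became 1.32 without LKO 8.

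*Plin4*, a perilipin best known from adipocytes, stayed near 1 FPKM, from 0.44 to 1.52 FPKM in *Fgl1* LWT mice (median 0.865) and from 0.81 to 1.90 FPKM in *Fgl1* LKO mice (median 1.23). The groups overlapped, and 1 *Fgl1* LKO mouse exceeded the highest *Fgl1* LWT mouse. Its exons share 3124 bases with those of *Hdgfl2* on the opposite strand, which had 13.4 FPKM, so that part of its low signal could belong to that gene if strand was not used in counting.

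*Cideb*, the CIDE protein of hepatocytes that acts in the lipidation of very low density lipoproteins, was the most even gene of the group. It ranged from 134 to 161 FPKM in *Fgl1* LWT mice (median 153) and from 135 to 176 FPKM in *Fgl1* LKO mice (median 151). The genotypes overlapped, although 3 *Fgl1* LKO mice exceeded the highest *Fgl1* LWT mouse, with means of 151 ± 8.96 and 154 ± 16.4 FPKM (SD, n = 8 each) and a log2 difference of 0.02 (SE 0.07). Its spread within a genotype was larger than that of only 18.6% of the 500 genes of most similar mean. Exons of *Nop9* on the opposite strand, at 5.96 FPKM, share 1136 bases with it.

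*Cidec*, which fuses droplets into larger ones and is low in lean liver, was the most variable. LWT 1 to LWT 8 had 0.04, 0.08, 0.12, 0.24, 0.20, 0.45, 0.08 and 0.16 FPKM. LKO 1 to LKO 8 had 0.12, 0.60, 0.24, 0.20, 0.43, 0.08, 2.53 and 7.04 FPKM. LKO 7 and LKO 8 were above the other 14 mice, which had 0.04 to 0.60 FPKM, and the remaining 6 *Fgl1* LKO mice overlapped with the *Fgl1* LWT mice. Means were 0.171 ± 0.131 and 1.41 ± 2.42 FPKM (SD, n = 8 each). Their ratio of 8.20 was 3.50 without LKO 8 and 1.63 without LKO 7 and LKO 8, and the medians were 0.14 and 0.335 FPKM. The *Fgl1* LWT values were near 1 to 11 times the lowest value in the table for this gene, so that a few fragments could set them.

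*Cidea*, the CIDE protein of brown adipocytes, was listed at 0 in 8 of the 16 mice. The other values were 0.13 FPKM in LWT 1 and LWT 7, 0.06 or 0.07 FPKM in 5 *Fgl1* LKO mice and 0.32 FPKM in LKO 8. *Ucp1*, the defining gene of brown adipocytes, was at 0 in all mice.

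*Pnpla2* encodes ATGL, the lipase that starts triglyceride hydrolysis. It had 19.6 to 26.0 FPKM in *Fgl1* LWT mice (median 23.3) and 21.2 to 33.5 FPKM in *Fgl1* LKO mice (median 24.6). Only LKO 3, LKO 6 and LKO 7 exceeded the highest *Fgl1* LWT mouse, and the means of 22.9 ± 2.42 and 25.9 ± 4.61 FPKM (SD, n = 8 each) differed by 0.16 on the log2 scale (SE 0.10).

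*G0s2*, the inhibitor of ATGL, differed more, and it also varied more. LWT 1 to LWT 8 had 71.7, 54.7, 22.96, 27.4, 26.4, 40.7, 20.03 and 35.1 FPKM. LKO 1 to LKO 8 had 27.4, 96.4, 118, 36.2, 38.6, 63.03, 100.1 and 73.3 FPKM. Highest were LKO 2, LKO 3 and LKO 7, and 4 *Fgl1* LKO mice exceeded the highest *Fgl1* LWT mouse, LWT 1. Means were 37.4 ± 17.8 and 69.2 ± 33.6 FPKM (SD, n = 8 each), a ratio of 1.85 and a log2 difference of 0.83 (SE 0.31). Inside the runs 48 to 55, 60 to 64 and 69 to 72, the log2 difference was 1.28, 0.43 and 1.65. With the runs as a term it was 1.06 (SE 0.37). Its spread within a genotype exceeded that of 97.2% of the 500 genes of most similar mean.

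On GRCm39, *Plin2* spans 86565912 to 86588459 on chromosome 4, *Plin4* 56406617 to 56416931 and *Plin5* 56418446 to 56424610 on chromosome 17, all on the minus strand. *Cideb* spans 55991507 to 55996099 on chromosome 14, *Cidec* 113400691 to 113412721 on chromosome 6 and *G0s2* 192949563 to 192956177 on chromosome 1, also on the minus strand, and *Pnpla2* 141034404 to 141040656 on the plus strand of chromosome 7. *Plin4* and *Plin5* are thus neighbours, and *Fitm1* and *Cideb* lie on the same chromosome. Set side by side per length, the mean levels ran in the order *Plin2*, *Cideb*, *G0s2*, *Pnpla2*, *Plin5*, *Fitm2*, *Fitm1*, *Plin4*, *Cidec* and *Cidea*. The steps from *Cideb* to *G0s2*, from *Pnpla2* to *Plin5* and from *Fitm1* to *Plin4* held in all 16 mice. *Plin2* was above *Cideb* in only 10 of 16 mice, and *Fitm2* above *Fitm1* in 11 of 16, so that these neighbours did not differ beyond their spread. *Plin4* was above *Cidec* in 14 of 16 mice, and the exceptions were LKO 7 and LKO 8.

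All 9 genes above the filter had a positive log2 difference between *Fgl1* LKO and *Fgl1* LWT mice, as did 55.8% of all genes. This count describes a group that was chosen with such differences in view. Between the 5th and the 95th percentile, the log2 differences of all genes ran from -0.17 to 0.23, with a median of 0.01. *Cideb* and *Pnpla2* lay inside this range and the other 7 genes above it, *Plin5* only just, at 0.25. The range takes no account of the level of a gene or of its spread among mice.

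**Figure D3:**
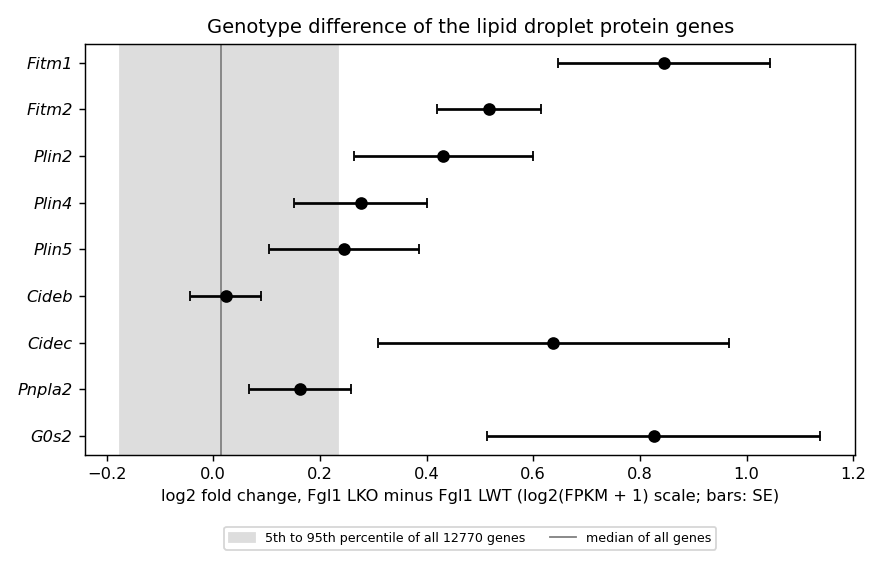
Difference between *Fgl1* LKO and *Fgl1* LWT mice on the log2(FPKM + 1) scale (horizontal axis) for the 9 genes above the filter, as points with SE bars (n = 8 mice per genotype). The grey band spans the 5th to 95th percentile of all 12770 genes, from -0.17 to 0.23, and *Cideb* at 0.02 and *Pnpla2* at 0.16 are the points inside it.

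Other genes of the same pathways were set beside all genes, of which 7.01% had an unadjusted p under 0.05 and 55.8% a positive difference. Of 13 other genes of the droplet surface and of droplet biogenesis that were tested, 0 passed the adjusted threshold of limma and 1 had an unadjusted p under 0.05, *Hsd17b13*, a droplet-bound enzyme of hepatocytes, at -0.21 on the log2 scale (SE 0.10). The median over the 13 was 0.00, beside 0.01 over all genes. Of 13 other genes of triglyceride hydrolysis, 0 passed and 1 had an unadjusted p under 0.05, *Hilpda*, which also inhibits ATGL, with 1.95 ± 0.212 FPKM in *Fgl1* LWT and 2.61 ± 0.639 FPKM in *Fgl1* LKO mice (SD, n = 8 each). *Abhd5*, the ATGL coactivator, differed by 0.27 (SE 0.15), and the median was -0.06. Of 18 genes of triglyceride synthesis, 0 passed and 2 had an unadjusted p under 0.05, *Mogat1*, a monoacylglycerol acyltransferase, at 0.18 (SE 0.06) and *Acsl4*, an acyl-CoA synthetase for arachidonic acid, at 0.67 (SE 0.30). *Acsl4* rests on LKO 7 and LKO 8, since its ratio between the genotype means was 1.98 with them and 1.15 without them, where the log2 difference was 0.19 (SE 0.13). The median was 0.05, and *Dgat2*, the most abundant of them, differed by -0.05 (SE 0.10). Of 10 genes of lipoprotein assembly, 0 had an unadjusted p under 0.05, with a median of 0.06 and *Apob* at 0.08 (SE 0.11). Of 25 other PPAR target genes of liver, 22 had a positive difference, against 55.8% of all genes, and the median was 0.17, against 0.01, while 0 had an unadjusted p under 0.05. *Pex11a*, a peroxisome gene, differed by 0.18 (SE 0.09) and *Fabp1*, the liver fatty acid binding protein, by -0.09 (SE 0.20).

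Which of the genes varied together among mice of the same genotype is a question that the choice of the genes did not use. Each of the 9 genes served in turn as a covariate beside genotype in limma fits of all genes. Of 72 such tests of one gene on another, 4 had an adjusted p under 0.05, and 15 an unadjusted p under 0.05. Over all genes, the share called at the adjusted threshold ran from 0% with *Fitm1*, *Plin4* or *G0s2* as covariate to 6.77% with *Cidec*. The share of all genes with an unadjusted p under 0.05 in these fits was not computed, so that the 15 has no background to be read against. Over the 36 pairs, the Pearson r of genotype-centred log2(FPKM + 1) values ran from -0.73 to 0.78 with a median of 0.10, and 22 were positive.

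**Figure D4:**
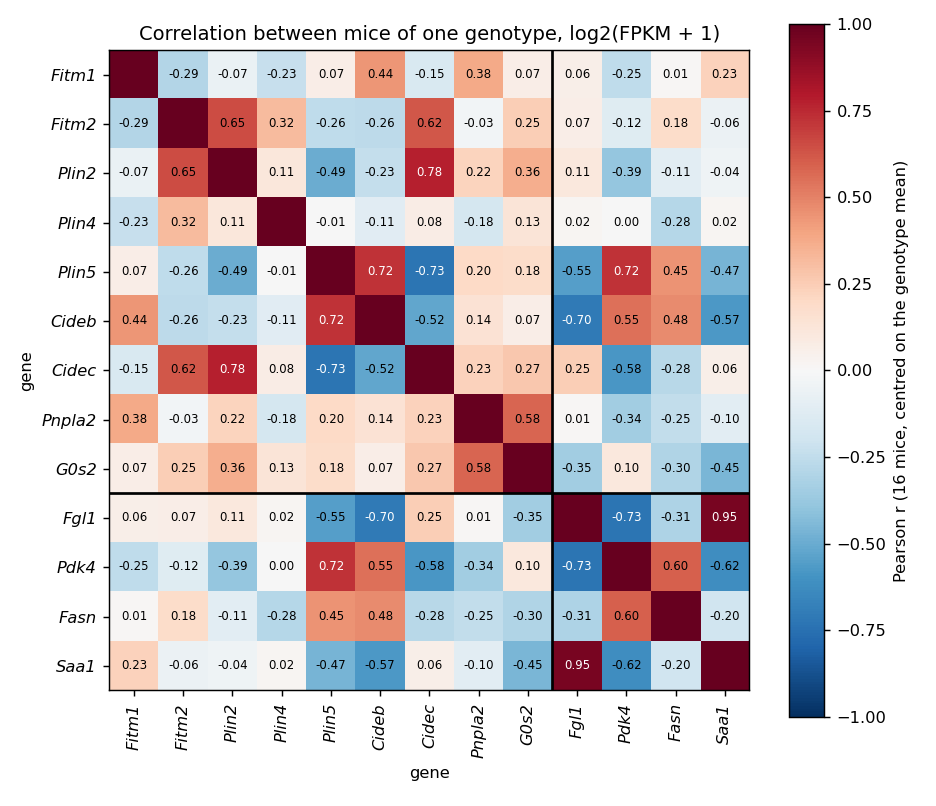
Pearson r over 16 mice of log2(FPKM + 1) values centred on the genotype mean, as colour and number, for the 9 lipid droplet genes and, beyond the black lines, for *Fgl1*, *Pdk4*, *Fasn* and *Saa1* (both axes list genes). The highest value among the lipid droplet genes is 0.78 for *Plin2* with *Cidec* and the lowest -0.73 for *Plin5* with *Cidec*.

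*Plin2* rose with *Cidec*. The limma slope of *Plin2* on *Cidec* was 0.39 (SE 0.08, adjusted p = 0.00974), in a fit where *Cidec* as covariate called 864 of 12769 genes (6.77%). Over the 16 mice r was 0.78 (permutation p = 0.00011) and rho 0.69 (permutation p = 0.00664). Within *Fgl1* LWT mice r was 0.67 (exact permutation p = 0.0659, n = 8) and within *Fgl1* LKO mice 0.94 (exact permutation p = 0.000521, n = 8). The rho within these groups was 0.49 and 0.88. Apart from LKO 7 and LKO 8, *Cidec* was at 0.04 to 0.60 FPKM, where a few fragments could set the values. Without LKO 8 and LWT 4, the mice farthest from the median of *Plin2*, r was 0.63. It was 0.54 without LKO 8 and 0.66 without LKO 7 and LKO 8. The call itself was lost without LKO 8, with an adjusted p of 0.674 in limma and a slope of 0.37, and it was kept in each of the other 15 fits that left out 1 mouse. Over 26 other settings the adjusted p ran from 0.00164 to 0.674.

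*Plin5* fell with *Cidec*, and this depended on LKO 8 and on the terms of the fit. The slope of *Plin5* on *Cidec* was -0.30 (SE 0.07, adjusted p = 0.0214 by limma), and that of *Cidec* on *Plin5*, in a fit that called 502 genes (3.93%), was -1.77 (SE 0.40, adjusted p = 0.0316 by limma). Over the 16 mice r was -0.73 (permutation p = 0.022) and rho -0.61 (permutation p = 0.0184). It was -0.46 within *Fgl1* LWT mice (exact permutation p = 0.252, n = 8) and -0.76 within *Fgl1* LKO mice (exact permutation p = 0.0273, n = 8). Without LKO 8 and LKO 3, the mice farthest from the median of *Plin5*, r was -0.25, and without LKO 8 alone it was -0.29. Without LKO 8 the adjusted p of the 2 slopes was 0.88 and 0.568 in limma, over ranges of 0.00769 to 0.88 and 0.0176 to 0.568 for the 26 other settings of each. The slope of *Cidec* on *Plin5* also lost its call without LKO 3 or LKO 6. With the runs as a term the adjusted p of the 2 slopes was 0.132 and 0.181, and without a genotype term 0.214 and 0.34, both by limma.

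*Fitm2* had a positive r with both *Plin2* and *Cidec* that did not pass the test across genes. With *Plin2*, r was 0.65 (permutation p = 0.00713) and rho 0.64 (permutation p = 0.0128), and the limma slope with *Fitm2* as covariate had an adjusted p of 0.096. With *Cidec*, r was 0.62 (permutation p = 0.00288) and rho 0.53 (permutation p = 0.0475), with an adjusted p of 0.107 by limma. With *Cidec*, r was 0.94 within *Fgl1* LKO mice (exact permutation p = 9.92e-05, n = 8) and 0.00 within *Fgl1* LWT mice (exact permutation p = 0.997, n = 8). With *Plin2* it was 0.94 (exact permutation p = 0.00124, n = 8) and 0.35 (exact permutation p = 0.394, n = 8), and the difference between these values was not tested. Without LWT 8 and LKO 8, the mice farthest from the median of *Fitm2*, r was 0.40 with *Plin2* and 0.67 with *Cidec*. Without LKO 7 and LKO 8 the r over both genotypes was 0.41 with *Plin2* and 0.25 with *Cidec*. *Fitm2* as covariate called 114 genes (0.893%), none of them among the other 8 lipid droplet genes, and *Plin2* as covariate called 4 genes (0.0313%), also none of these. Over the 16 mice, *Fitm1* had no r with another of these genes with a permutation p under 0.05. It called 0 genes (0%) as a covariate in limma, 0 of them lipid droplet genes, and its r with *Fitm2* was -0.29 (permutation p = 0.314).

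**Figure D5:**
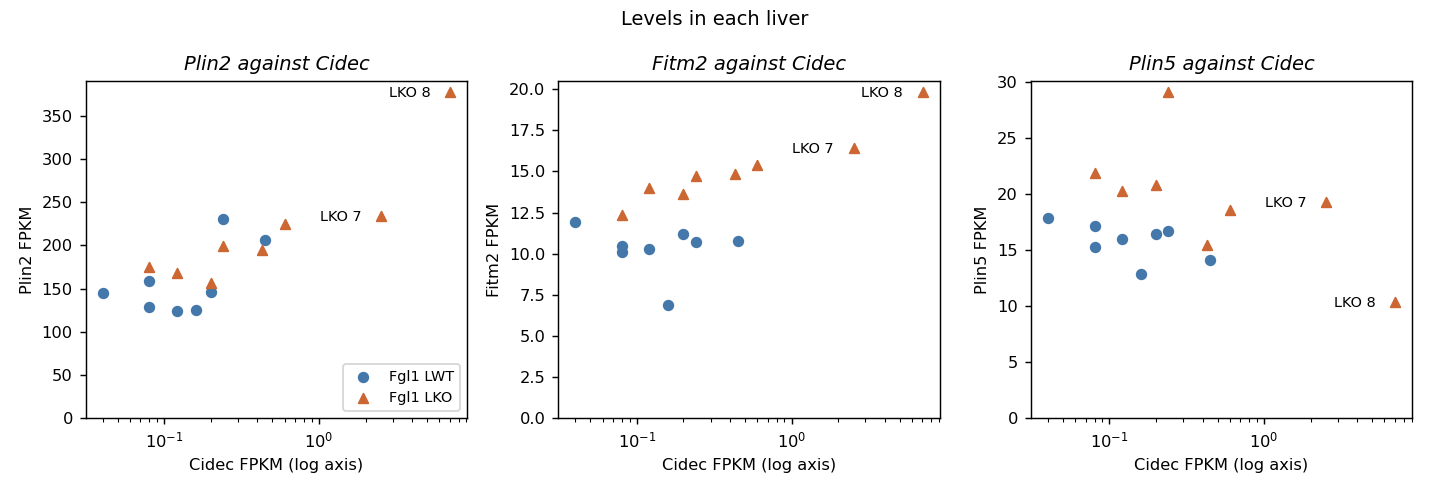
FPKM of *Plin2*, *Fitm2* and *Plin5* (vertical axes) against FPKM of *Cidec* (horizontal log axis), with 1 point per mouse, *Fgl1* LWT as circles and *Fgl1* LKO as triangles. LKO 8, at 7.04 FPKM of *Cidec*, has the highest *Plin2* and *Fitm2* and the lowest *Plin5*, and the other mice without LKO 7 lie between 0.04 and 0.60 FPKM of *Cidec*.

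LKO 7 and LKO 8 also differed from the other 14 mice in genes outside the group. *Acsl4* had 50.9 FPKM in LKO 7 and 47.7 FPKM in LKO 8, against 7.40 to 15.2 FPKM in the others. *Fabp4*, a PPAR target of adipocytes and macrophages, had 18.1 and 45.1 FPKM against 3.95 to 16.2 FPKM. With *Cidec* as covariate, *Acsl4* (slope 0.77, adjusted p = 0.00191 by limma) and *Fabp4* (slope 0.70, adjusted p = 0.0307 by limma) had positive slopes, and *Agpat2*, an acyltransferase of triglyceride synthesis, a negative slope of -0.35 (adjusted p = 0.00282 by limma). None of these 3 calls was kept without LKO 8 (adjusted p = 0.0839, 0.87 and 0.298 by limma, in the same order) or without LKO 7 and LKO 8 (adjusted p = 0.995, 0.959 and 0.962), and without both mice the slopes of *Acsl4* and *Fabp4* were -0.06 and -0.65. Some marker sums of other cells were also highest in LKO 8. The adipocyte markers (4 of 6 in the table) summed to 4.65 to 16.4 FPKM in *Fgl1* LWT mice and to 4.21 to 45.1 FPKM in *Fgl1* LKO mice, with LKO 8 highest through *Fabp4* alone, while *Plin1*, the perilipin that defines adipocytes, was at 0 in all mice and *Adipoq* at 0 in LKO 7 and LKO 8. The 5 cholangiocyte markers summed to 24.7 to 56.1 FPKM in *Fgl1* LWT mice and to 28.9 to 262 FPKM in *Fgl1* LKO mice, with LKO 8 highest mainly through *Spp1* at 255 FPKM. Its *Epcam*, at 3.35 FPKM, was also above the 0.39 to 1.75 FPKM of the 14 mice other than LKO 7 and LKO 8. Its *Krt19*, at 1.83 FPKM, was within their 0.71 to 2.44 FPKM. *Krt7*, at 0.43 FPKM, and *Sox9*, at 0.90 FPKM, were within the ranges of these 14 mice too (0.26 to 0.84 and 0.62 to 2.43 FPKM). The 5 Kupffer cell markers summed to 51.7 to 108 FPKM and to 63.3 to 137 FPKM, again with LKO 8 highest. The part of these cells in the levels of LKO 8 was not tested.

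*Plin5* and *Cideb* were higher in the same mice. With *Cideb* as covariate, which called 404 genes (3.16%), the slope of *Plin5* was 1.79 (SE 0.45, adjusted p = 0.0451 by limma). Over the 16 mice r was 0.72 (permutation p = 0.00271) and rho 0.63 (permutation p = 0.0147), and r was 0.57 without LKO 8 and LKO 3. Within *Fgl1* LKO mice r was 0.83 (exact permutation p = 0.00198, n = 8) and within *Fgl1* LWT mice 0.28 (exact permutation p = 0.496, n = 8), and this difference was not tested. The call was close to the threshold. It was kept in 5 of the 16 fits that left out 1 mouse and in 9 of 27 other settings in all, with adjusted p from 0.0048 to 0.244. *Dgat2*, which makes triglyceride from diacylglycerol, had a positive slope on both *Plin5* (0.55, adjusted p = 0.0208 by limma) and *Cideb* (1.30, adjusted p = 0.029 by limma). So did *Acot2*, a PPAR target of mitochondria, at 0.78 (adjusted p = 0.0369 by limma) and 1.98 (adjusted p = 0.0375 by limma). *Acot2* was low, at 0.06 to 1.70 FPKM. LKO 8 had the lowest *Dgat2* (191 FPKM) and the lowest *Plin5* (10.4 FPKM) of all mice, and these slopes were not refitted without it.

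Marker genes of metabolic state were used as covariates in the same way: *Pdk4*, a PPAR alpha target that is high in the fasted liver, *Fasn*, a lipogenic gene of the fed liver, *Saa1*, an acute-phase gene, and *Fgl1* itself. Of 36 tests on the 9 genes, 1 had an adjusted p under 0.05, and 6 an unadjusted p under 0.05. The share of all genes with an unadjusted p under 0.05 in these fits was not computed either. The 1 call was *Plin5* on *Pdk4*, with a slope of 0.39 (SE 0.10, adjusted p = 0.027 by limma), in a fit that called 935 genes (7.32%). Over the 16 mice r was 0.72 (permutation p = 0.00188) and rho 0.70 (permutation p = 0.00568). It was positive in both genotypes, at 0.69 in *Fgl1* LWT mice (exact permutation p = 0.057, n = 8) and 0.80 in *Fgl1* LKO mice (exact permutation p = 0.0153, n = 8), and stayed at 0.65 without LKO 8 and LWT 2. The call was lost without LKO 3, without LKO 8, and without LKO 7 and LKO 8 together (adjusted p = 0.155 by limma). It was also lost with the runs as a term, with median-ratio scaling (adjusted p = 0.0715 by limma) and with quantile normalization (adjusted p = 0.0561 by limma). Over 27 other settings the adjusted p ran from 0.00419 to 0.206. *Fasn*, *Saa1* and *Fgl1* called 0.689%, 1.65% and 4.03% of all genes and 0 of the 9. All mice were fed, and *Pdk4* had a positive r with *Fasn* (0.60, permutation p = 0.0212), with a rho of 0.32 (permutation p = 0.249). It had a negative r with *Fgl1* (-0.73, permutation p = 0.00213) and with *Saa1* (-0.62, permutation p = 0.0133). What *Pdk4* stands for in these mice was not tested.

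*Fgl1* within a genotype had a negative r with *Cideb*, at -0.70 (permutation p = 0.00231) and rho -0.63 (permutation p = 0.0147), and with *Plin5*, at -0.55 (permutation p = 0.0197) and rho -0.61 (permutation p = 0.0203). For *Cideb* it was -0.64 in *Fgl1* LWT mice (exact permutation p = 0.083, n = 8) and -0.80 in *Fgl1* LKO mice (exact permutation p = 0.0167, n = 8), and -0.52 without LKO 3 and LWT 7. For *Plin5* it was -0.36 and -0.73 in the same order (exact permutation p = 0.378 and 0.0314, n = 8), and -0.46 without LKO 3 and LWT 7. The limma slope of *Cideb* on *Fgl1* had an adjusted p of 0.0984 and that of *Plin5* on *Fgl1* one of 0.149. With *Cideb* as the covariate, the slope of *Fgl1* passed (adjusted p = 0.0438 by limma). With *Fitm1* and *Fitm2*, r of *Fgl1* was 0.06 (permutation p = 0.837) and 0.07 (permutation p = 0.822). *Fgl1* varied with *Saa1* over these mice (r = 0.95, permutation p = 2e-05, rho = 0.86, permutation p = 0.00015, r = 0.92 without LKO 3 and LWT 7), and the parts of the 2 genes in these relations cannot be told apart here.

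Among genes that averaged 1 FPKM or more (10036 searched for each but *Cidec*, 10037), those most like each lipid droplet gene were found from the same centred values over 16 mice, as a description. *Fitm2* was most like *Mark2*, a kinase of cell polarity, with r of 0.91, and like *Ddx27* at 0.87 and *Ywhag* at 0.86. *Fitm1* was most like *Lamtor4*, a subunit of the Ragulator complex of lysosomes, with r of 0.84, and like *Plppr2* and *Ift27*, both at 0.83. *Plin2* was most like *Pxmp4*, a peroxisomal membrane protein gene, with r of 0.89, and *Plin5* most like *Pold1*, a DNA polymerase subunit gene, with r of 0.91. *Cidec* was most like *Plet1*, with r of 0.96 that became 0.86 without LKO 8. *Cideb* was most like *Acads*, a dehydrogenase of short-chain fatty acid oxidation, with r of 0.93. *Pnpla2*, *G0s2* and *Plin4* were most like *Nuak2*, *Tns2* and *Rbm5*, with r of 0.89, 0.84 and 0.76. *Pnpla2* and *G0s2*, the lipase and its inhibitor, had an r of 0.58 with each other (permutation p = 0.0312) and a rho of 0.54 (permutation p = 0.0391), and r was 0.39 without LKO 7 and LKO 3. Within *Fgl1* LWT and *Fgl1* LKO mice r was 0.19 and 0.79 (exact permutation p = 0.654 and 0.0276, n = 8). The limma slopes between them had adjusted p of 0.882 and 0.98.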

How the data were processed

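Poly(A) RNA of 16 livers (8 *Fgl1* LWT, 8 *Fgl1* LKO) was sequenced from strand-specific libraries. The authors filtered the reads, mapped them with HISAT (mm39) and Bowtie2, whose versions are not given in the sources used here, and deposited FPKM per gene, already scaled for transcript length and library size and rounded to 2 decimals. Depth per library is unknown, and FPKM are not counts, so no count model was used.

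After adding 1, log2 was taken, and genes averaging 0.1 FPKM or more were tested with limma 3.58.1 (R 4.3.3, eBayes with trend, two-sided, Benjamini-Hochberg over all genes tested, threshold 0.05). The terms were genotype, then a gene or the runs of mouse numbers beside genotype. Correlations used values centred on the genotype mean, with 100000 permutations of mice within genotype, or all 40320 orders within 1 genotype (Python 3.11.15, scipy 1.17.1, two-sided). The limma fits were tested on simulated normal values, and the correlations and permutations were not. Labels number the replicates, but same-numbered mice did not deviate together (r over 0.1 in 3 of 8 pairs), so they were not paired.

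The genes, lists and tests were chosen with earlier results of these data known. Named were all 10 genes, the targeted gene, 3 metabolic marker genes, neighbours within 100 kb of the FIT genes, the 3 genes most like each gene in the centred values, and from each list the genes past the threshold, the 2 with the smallest unadjusted p and the 2 with the highest mean. *Agpat2*, *Fabp4*, *Acot2*, *Cyp4a10*, *Adipoq*, *Spp1*, *Epcam*, *Krt19*, *Krt7* and *Sox9* were named after their values were seen. The result of 1 gene under this rule is not reported here. Gene positions are from GRCm39 with GENCODE vM39 and promoters from RefSeq on GRCm38.p6. Alternatives were other pseudocounts, filters and scalings, array weights, robust fits, a replicate block, the runs as a term, leaving out mice, and an exact rank-sum test. Leaving out LKO 7 and LKO 8 together was chosen after seeing the data.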

Additional observations from a re-analysis of the deposited data

Results flagged for a closer look

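In each genotype the highest and the lowest mouse of the 10 genes and 4 marker genes was set against the mouse next to it by Dixon's outlier test for 8 values at its 95% limit, in which the gap is divided by the whole spread of log2(FPKM + 1). Of 28 groups, 3 passed, where chance gives about 1.4. *Fitm2* in LWT 8 was the lowest *Fgl1* LWT value, at 6.90 FPKM against 10.1 FPKM for the next (gap 0.699 of the spread). *Plin2* in LKO 8 was the highest *Fgl1* LKO value, at 378 FPKM against 234 FPKM for LKO 7 (gap 0.543). *Cidea* in LKO 8 was also the highest, at 0.32 FPKM against 0.07 FPKM for LKO 4 (gap 0.756), in a gene with values at 0 in 8 mice. What sets LKO 8 apart was not tested.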

How the results depend on the processing

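The log2 differences between the genotypes of *Fitm1*, *Fitm2*, *Plin2*, *Plin4*, *Plin5*, *Cidec*, *Pnpla2* and *G0s2* were positive in every setting in which they were tested (*Cidec* was left out by the filter of 1 FPKM). *Fitm1* ranged from 0.63 to 0.98, *Fitm2* from 0.43 to 0.56 and *G0s2* from 0.67 to 1.06, and 8 to 9 genes were above 0. The count was 8 at a mean of at least 1 FPKM, where 8 genes were tested, and without LWT 7, LKO 3 or LKO 4, where *Cideb* was just below 0. Low genes moved with the pseudocount: at 0.01 the differences of *Cidec* and *Plin4* were 1.72 and 0.60. A count of 1 gene past the threshold between the genotypes, in place of 0, was given by an equal FPKM sum, without LWT 1, LWT 2 and LWT 3 (run 36 to 38), with the runs as a term and with a replicate block. That gene was *Fgl1* in each of these, and the block changed no other call. Same-numbered mice had a mean r of 0.07 (-0.16 to 0.45), so the numbers do not pair them.

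The 4 tests of one lipid droplet gene on another became 1 at a mean of at least 1 FPKM, which removes *Cidec*, 2 without LWT 1, LWT 2 and LWT 3 (run 36 to 38), 0 to 6 leaving out each mouse in turn and 0 without LKO 7 and LKO 8. The lowest count, 0, was without LKO 8, and it was 2 without LKO 3 or LKO 6. The 1 call of a marker gene became 3 with an equal FPKM sum, 0 with median-ratio scaling, with quantile normalization, with the runs as a term and without LKO 7 and LKO 8, and 0 to 3 leaving out each mouse, with 0 without LKO 3 or LKO 8 and 3 without LKO 6. The 13 genes that differed between the runs became 161 with an equal FPKM sum, 8 with a pseudocount of 0.01, 8 with quantile normalization, 25 without LKO 7 and LKO 8, 0 without LWT 1, LWT 2 and LWT 3 (run 36 to 38) and 1 to 37 leaving out each mouse. The causes were not tested, apart from genes or mice removed by the setting itself. Unknown read numbers limit what can be said of *Cidec*, *Cidea* and *Plin4*.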

Other observations

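Some relations of *Fitm1* differed in sign or size between the genotypes. They were noticed among the correlations of 36 pairs of lipid droplet genes and 36 pairs of such a gene with a marker gene, and the difference between the genotypes was not tested. *Fitm1* and *Pnpla2* had an r of 0.88 in *Fgl1* LWT mice (exact permutation p = 0.00441, n = 8) and of -0.02 in *Fgl1* LKO mice (exact permutation p = 0.97, n = 8). *Fitm1* and *Cidec* had an r of 0.72 (exact permutation p = 0.0351, n = 8) and of -0.45 (exact permutation p = 0.278, n = 8), and *Fitm1* and *Cideb* one of 0.20 (exact permutation p = 0.643, n = 8) and of 0.76 (exact permutation p = 0.0361, n = 8), in the same order. *Fitm1* and *Pdk4* had an r of -0.89 in *Fgl1* LWT mice (exact permutation p = 0.00325, n = 8) and of 0.60 in *Fgl1* LKO mice (exact permutation p = 0.118, n = 8). The lowest *Fitm1* of *Fgl1* LWT mice was in LWT 2, LWT 3 and LWT 4, of which LWT 2 and LWT 3 belong to the run 36 to 38, and the part of the run was not tested.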
